A study of Mus musculus with 12 samples.

Results

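The genes described here are 10 components of JAK-STAT signalling and of its feedback inhibition in microglia. They are the inhibitors *Socs1*, *Socs2*, *Socs3* and *Cish*, the transcription factors *Stat3*, *Stat5a*, *Stat5b* and *Stat6*, and the kinases *Jak2* and *Jak3*. They were chosen by symbol, as 10 of the 55401 genes counted, and all 10 passed the filter on low counts. RNA of CD45int CD11b+ microglia sorted from mouse brain was sequenced in 12 libraries, 3 biological replicates in each of 4 groups, and each replicate pooled cells from 3 to 4 hemispheres. WT mice were CX3CR1 wt/wt:HDAC3 loxp/loxp and miKO mice were CX3CR1 CreER/wt:HDAC3 loxp/loxp. Both genotypes therefore carried the floxed alleles and both were male, while CreER and the loss of 1 *Cx3cr1* allele came only with miKO. Tamoxifen was given at 100 mg/kg for 5 days at 6 to 8 weeks of age. Transient focal cerebral ischemia (tFCI) was a 60 min occlusion of the left middle cerebral artery, with cells taken on day 3, and Sham mice had the artery exposed without occlusion. Replicate 1 of each group was in batch 1 and replicates 2 and 3 were in batch 2.

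Cytokines of the interleukin and interferon families bind receptors that have no kinase of their own. Janus kinases held on the receptor tails phosphorylate the receptor and then the STAT proteins, which pair up, enter the nucleus and bind DNA. SOCS proteins and CISH are induced by STATs and act back on the receptor or its kinase, so that their mRNA is a commonly used readout of the pathway. In microglia, STAT3 is best known downstream of the IL-6 and IL-10 families and STAT6 downstream of IL-4 and IL-13. JAK3 works only with the common gamma chain, the receptor subunit shared by the IL-2 family and IL-4.

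Each library held 7697864 to 9452222 counts on genes. The targeted gene *Hdac3* was lower in the miKO groups, at 20.9 to 25.8 CPM (counts scaled to library size) in miKO-Sham and 35.0 to 46.4 in WT-Sham, and at 27.1 to 36.0 in miKO-tFCI and 43.9 to 54.0 in WT-tFCI. Among the 10 microglial markers summed is *Cx3cr1*, of which miKO lost 1 allele, so their sum is not fully comparable between genotypes. The summed level of the 10 was 27117 to 37274 CPM in the Sham libraries and 20570 to 22964 in WT-tFCI. In miKO-tFCI it was 17117 and 20382 CPM in replicates 2 and 3 and 10645 in replicate 1, which also had the highest sums of monocyte (955 CPM), astrocyte (350 CPM) and endothelial (155 CPM) markers. Neutrophil markers summed to 640 to 893 CPM in miKO-tFCI against 145 to 195 in WT-tFCI, and to 788 CPM in WT-Sham replicate 1 against 45.8 to 70.6 in the other WT-Sham libraries. In miKO-Sham they summed to 310 to 328 CPM. B cell markers summed to 443 to 512 CPM in WT-Sham and 331 to 434 in miKO-Sham. After tFCI the B cell sums were 270 to 365 CPM in WT and 173 to 229 in miKO. Markers of border-associated macrophages summed to 147 CPM in miKO-Sham replicate 3 against 33.0 and 34.4 in the other miKO-Sham libraries, and to 152 to 346 CPM in miKO-tFCI against 74.3 to 134 in WT-tFCI. Monocyte markers summed to 191 CPM in miKO-Sham replicate 3 against 59.8 and 63.4 in the others. The sums of monocyte, astrocyte and endothelial markers were higher in every tFCI library than in every Sham library. For monocytes the lowest tFCI sum was 408 CPM and the highest Sham sum 191 CPM. These were 39.8 and 16.2 CPM for astrocytes, and 35.2 and 26.3 CPM for endothelial cells. Dendritic cell markers summed to 94.2 CPM in miKO-tFCI replicate 1 and to at most 35.5 elsewhere, and T and NK cell markers to 14.6 CPM in that library and to at most 6.94 elsewhere. miKO-Sham replicates 1 and 2 were closer to each other than any other replicates of a group were, with a chi-square per degree of freedom of 2.82 against 3.65 to 76.6. They still differed by more than sampling noise and were kept apart.

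STAT dimers bind palindromes of the form TTCNNNGAA, and STAT6 prefers the form with 1 more base, TTCNNNNGAA. Both forms were searched in windows from 250 bases upstream to 30 bases downstream of RefSeq start sites (GRCm38.p6), available for 9 of the 10 genes. No window was available for *Socs2*, so it was not searched. Each form reads the same on both strands. Only *Socs3* and *Cish* held the first form, which was found in 7.83% of 32851 such windows, and no window of these genes held the second, which was found in 6.5%. The following stretches belong to the 2 inhibitors with a match, shown because both are feedback targets of STATs, and to *Stat3* and *Jak3*, shown because these 2 genes had the most alike pattern over the libraries. Bases read 5′ to 3′ on the strand of the gene, and capitals mark TTCNNNGAA. Each stretch but that of *Cish* ends before the first exonic base of GENCODE in its window. In *Cish* the whole window is exonic and 30 bases are shown.
Socs3: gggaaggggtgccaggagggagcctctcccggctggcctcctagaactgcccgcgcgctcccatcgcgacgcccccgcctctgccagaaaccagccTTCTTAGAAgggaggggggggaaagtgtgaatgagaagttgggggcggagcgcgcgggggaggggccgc
Cish: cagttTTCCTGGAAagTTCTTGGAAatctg
Stat3: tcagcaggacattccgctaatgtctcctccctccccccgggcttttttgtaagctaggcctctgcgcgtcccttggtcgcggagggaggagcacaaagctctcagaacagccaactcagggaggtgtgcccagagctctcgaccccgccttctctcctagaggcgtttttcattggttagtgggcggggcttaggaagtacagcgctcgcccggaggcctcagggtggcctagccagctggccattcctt
Jak3: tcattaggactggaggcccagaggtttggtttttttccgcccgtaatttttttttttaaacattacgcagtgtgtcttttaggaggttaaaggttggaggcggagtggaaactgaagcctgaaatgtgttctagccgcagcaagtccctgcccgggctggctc
The *Socs3* stretch is chr11:117969452-117969616 on the minus strand, with its match TTCTTAGAA at positions -154 to -146 from the start. The *Cish* stretch is chr9:107296654-107296683 on the plus strand, with TTCCTGGAA at bases 1 to 9 and TTCTTGGAA at bases 12 to 20 counted from the start. At least 2 matches were found in 0.408% of all windows. The *Stat3* stretch is chr11:100939541-100939790 on the minus strand and the *Jak3* stretch is chr8:71676133-71676295 on the plus strand. The *Socs3* stretch lies within the GENCODE gene, which spans chr11:117966079-117970047. A match here is a match of letters only.

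To compare genes with each other, levels were divided by exon length. *Socs3* had the highest level per kb in all 4 groups, at 231 ± 32.7 CPM per kb in WT-Sham (SD, n = 3), 215 ± 30.2 in miKO-Sham, 229 ± 21.4 in WT-tFCI and 152 ± 38.4 in miKO-tFCI. *Stat6* followed, from 35.1 CPM per kb in WT-tFCI to 55.0 in miKO-Sham, and *Stat3* came next, from 14.5 in miKO-Sham to 27.5 in WT-tFCI. These top 3 did not overlap with their neighbours in the order in any group. *Jak3* came after them in 3 groups, although in miKO-tFCI it overlapped with *Jak2*. In miKO-Sham its level of 5.16 ± 1.34 CPM per kb (SD, n = 3) was below that of *Stat5b* (6.78 ± 0.149) and overlapped with both *Stat5b* and *Jak2* (4.69 ± 0.755). *Socs1* and *Stat5a* lay between 1.95 and 3.98 CPM per kb and overlapped in miKO-Sham and miKO-tFCI. *Cish* and *Socs2* were lowest, between 0.103 and 1.47 CPM per kb. Their order was separate in both Sham groups and overlapped in both tFCI groups. The inhibitor family therefore held both the most and the least abundant transcripts of the set, and *Socs3* exceeded *Socs1* per kb by 59.3 ± 14.7 times in WT-Sham (SD, n = 3).

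**Figure D1:**
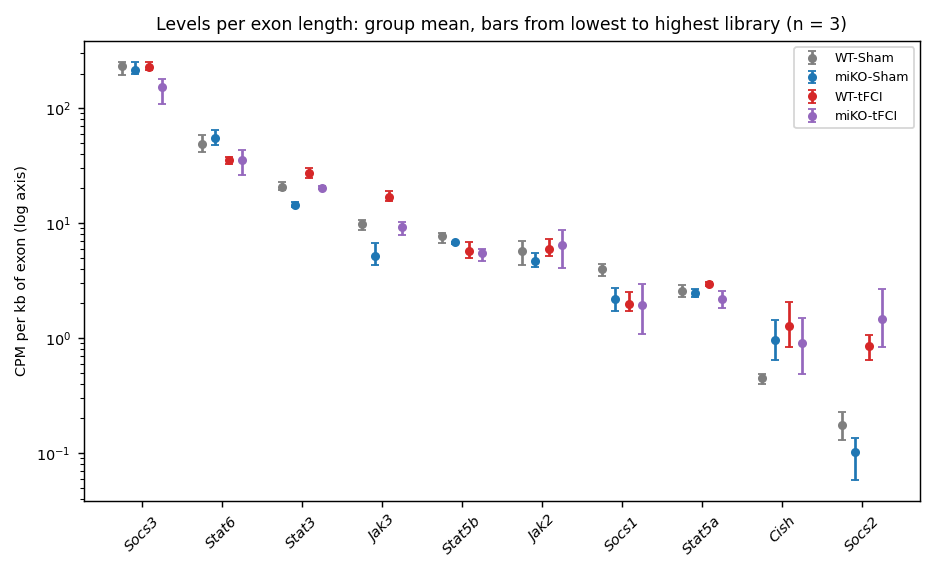
Level per exon length (CPM per kb, log axis) of the 10 genes in the 4 groups. Points are means of 3 libraries and bars run from the lowest to the highest library. *Socs3* is highest in every group, and *Socs2* spans the widest range between groups, from 0.103 CPM per kb in miKO-Sham to 1.47 in miKO-tFCI.

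Differences were tested with edgeR's quasi-likelihood test over all genes, with batch as a covariate. A gene was called where its adjusted p (Benjamini-Hochberg) was below 0.05 and its log2 difference exceeded 0.58 in either direction. In WT-tFCI vs. WT-Sham, 4 of the 10 genes were called, *Socs2*, *Cish* and *Jak3* higher and *Socs1* lower, where 32.6% of all 16451 genes tested were called. In miKO-tFCI vs. miKO-Sham 3 were called, *Socs2* and *Jak3* higher and *Stat6* lower, against 35.8% of all genes. These shares of the 10 genes, 40% and 30%, are near those of all genes. In miKO-Sham vs. WT-Sham only *Jak3* was called, lower, against 15.4% of all genes. In miKO-tFCI vs. WT-tFCI *Socs3* and *Jak3* were called, both lower, against 8.79% of all genes. The median log2 difference of the 10 genes in this last comparison was -0.25, with 2 of 10 above 0, and that of all genes tested was 0.04. None of the 10 passed edgeR's test of the interaction of genotype and surgery, where 3.82% of all genes were called. At an unadjusted p under 0.05 that interaction held 3 of the 10, *Socs2*, *Socs3* and *Cish*, beside 2926 of all 16451 genes tested. DESeq2 called 0 of the 10 for it. Groups of 3 libraries often do not overlap. In WT-tFCI vs. WT-Sham they were apart for 6 of the 10 genes and for 49.8% of all genes. In miKO-tFCI vs. miKO-Sham this held for 6 and for 48.2%. It held for 4 and 33.2% in miKO-Sham vs. WT-Sham, and for 4 and 22.9% in miKO-tFCI vs. WT-tFCI. Groups described below as apart are to be read beside these shares. The comparisons share groups with each other, so their values are given side by side and not as independent evidence. In bulk libraries such as these, fewer cells of a type and less RNA per cell cannot be told apart.

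**Figure D2:**
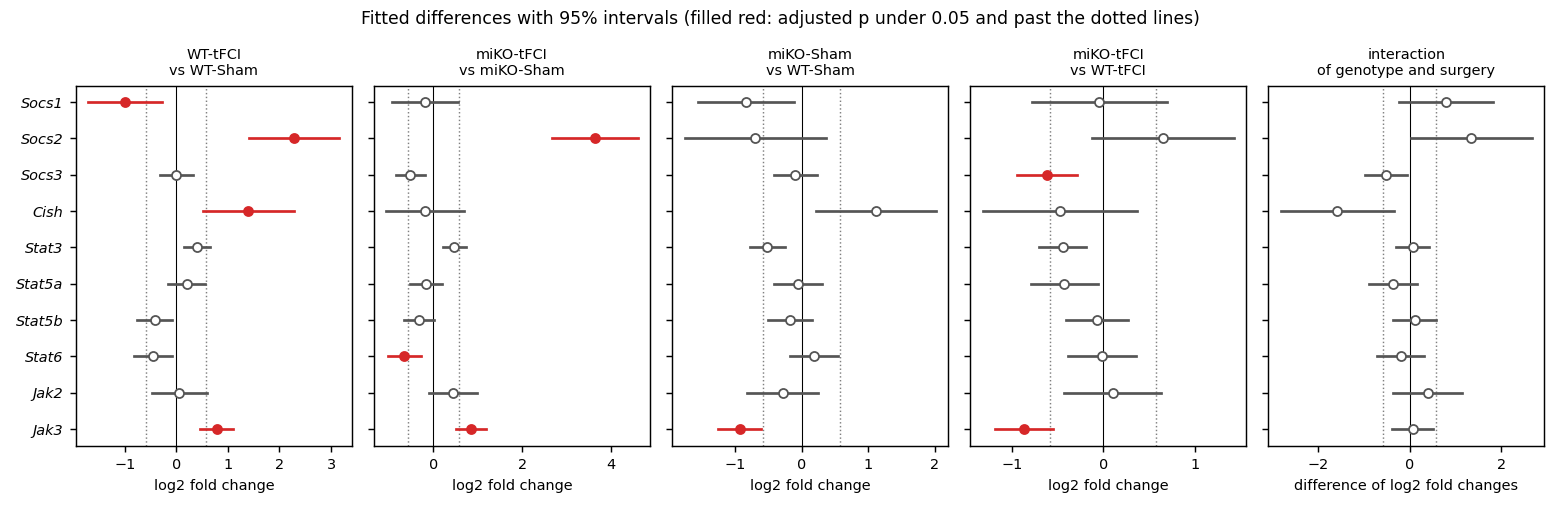
Fitted log2 fold changes of the 10 genes in 4 comparisons, and the difference of fold changes for the interaction, with 95% intervals. Filled red points were called and dotted lines mark the fold threshold of 0.58. *Jak3* is called in all 4 comparisons between groups, and no gene is called for the interaction.

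*Jak3*, at chr8:71676296-71690575 on the plus strand, encodes the kinase of the common gamma chain. It was the only gene of the set called in every comparison between groups. Its level was 46.9, 54.3 and 56.7 CPM in the WT-Sham libraries and 83.1, 86.0 and 103 CPM in WT-tFCI. In miKO it was 23.6, 23.3 and 35.9 CPM after Sham surgery and 41.9, 52.3 and 55.1 CPM after tFCI. All libraries of WT-tFCI were above all of WT-Sham, and all of miKO-tFCI above all of miKO-Sham, while miKO-tFCI lay in the range of WT-Sham or just under it. miKO-Sham replicate 3, at 35.9 CPM, is the library of its group with the high sums of border-associated macrophage and monocyte markers, whose part in its level was not tested. *Jak3* rose 1.72-fold after tFCI in WT (log2 0.78, SE 0.15, adjusted p = 0.000799) and 1.80-fold in miKO (log2 0.85, SE 0.15, adjusted p = 0.000525). It was 1.91-fold lower in miKO-Sham than in WT-Sham (adjusted p = 0.000561) and 1.83-fold lower in miKO-tFCI than in WT-tFCI (adjusted p = 0.00209). The interaction was 0.06 on the log2 scale, with a 95% interval of -0.39 to 0.52. Within batch 1 the 4 log2 differences were 0.82, 0.82, -0.98 and -0.98 in that order, and within batch 2 they were 0.76, 0.89, -0.94 and -0.81. *Insl3* shares 404 exon bases with *Jak3* on the same strand, but had 41 counts in all libraries together against 5596 of *Jak3*.

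*Jak2*, at chr19:29251828-29313080, serves the receptors of growth hormone, erythropoietin, GM-CSF and interferon gamma. Its level was 21.9 to 35.5 CPM in WT-Sham, 20.7 to 27.9 in miKO-Sham, 25.9 to 36.6 in WT-tFCI and 20.5 to 43.6 in miKO-tFCI. The groups overlapped in every comparison and none was called, with 95% intervals that reached at most 0.98 on the log2 scale in comparisons between groups. Without miKO-tFCI replicate 2, the difference between miKO-tFCI and miKO-Sham was called (log2 0.69, adjusted p = 0.0314). The highest value was that of miKO-tFCI replicate 1. The ratio of *Jak3* to *Jak2* per kb was 1.77 ± 0.258 in WT-Sham, 1.14 ± 0.435 in miKO-Sham, 2.91 ± 0.691 in WT-tFCI and 1.62 ± 0.749 in miKO-tFCI (SD, n = 3).

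**Figure D3:**
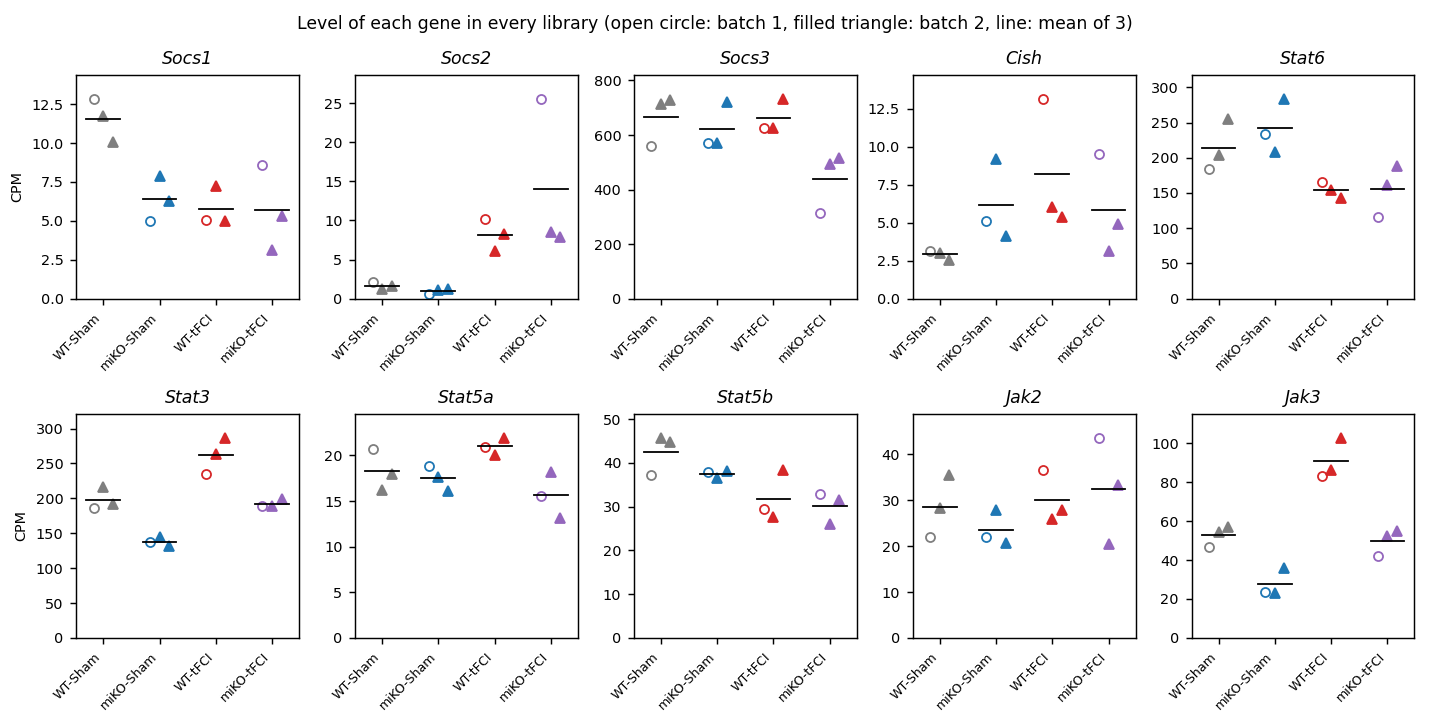
CPM of each of the 10 genes in all 12 libraries, on linear axes that start at 0. Open circles are batch 1, filled triangles are batch 2 and lines are means of 3. *Jak3* and *Stat3* share an order of groups, with WT-tFCI highest and miKO-Sham lowest, and miKO-tFCI replicate 1 is the highest library for *Socs2* (25.6 CPM) and *Jak2* (43.6 CPM).

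*Stat3*, at chr11:100885098-100939540 on the minus strand, had small but ordered differences. The 3 libraries of each group were at 186, 216 and 191 CPM in WT-Sham and at 138, 145 and 132 CPM in miKO-Sham. After tFCI they were at 235, 264 and 287 CPM in WT and at 189, 189 and 199 CPM in miKO. WT-tFCI was above all other libraries and miKO-Sham below all others, with WT-Sham and miKO-tFCI overlapping in between. The adjusted p was under the threshold in all 4 comparisons between groups, but no log2 fold change passed 0.58, so *Stat3* was not called. The log2 differences were 0.40 for WT-tFCI vs. WT-Sham (adjusted p = 0.0151), 0.47 for miKO-tFCI vs. miKO-Sham (adjusted p = 0.00548), -0.52 for miKO-Sham vs. WT-Sham (adjusted p = 0.00733) and -0.44 for miKO-tFCI vs. WT-tFCI (adjusted p = 0.0293). Each SE was 0.12. Over the 12 libraries, adjusted for batch, *Stat3* and *Jak3* had a Pearson correlation of 0.94, the highest among the 10 genes. The libraries share their groups and depth, so this is a description of the pattern.

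*Stat6*, at chr10:127642986-127660957, is the factor of IL-4 and IL-13 signalling, and it ran the other way. Its level was 184, 203 and 255 CPM in WT-Sham and 233, 209 and 284 CPM in miKO-Sham. After tFCI it was 165, 155 and 143 CPM in WT and 116, 161 and 189 CPM in miKO. In both genotypes all tFCI libraries were below all Sham libraries. *Stat6* fell 1.57-fold in miKO-tFCI vs. miKO-Sham (log2 -0.65, SE 0.17, adjusted p = 0.00700). The call was lost on the fold threshold alone without miKO-Sham replicate 3 (log2 -0.56), without miKO-tFCI replicate 1 (log2 -0.54) and with batch 2 libraries only (log2 -0.52). In WT the difference was -0.46 on the log2 scale (adjusted p = 0.0466), under the fold threshold. It was called without WT-tFCI replicate 1 (log2 -0.62, adjusted p = 0.0254) and with batch 2 libraries only (log2 -0.61, adjusted p = 0.0180). The interaction was -0.20 with a 95% interval of -0.71 to 0.32. The genotypes differed by 0.18 after Sham surgery and by -0.01 after tFCI on the log2 scale, neither of them called. The ratio of *Stat3* to *Stat6* per kb was accordingly lowest in miKO-Sham, at 0.269 ± 0.0534, and highest in WT-tFCI, at 0.790 ± 0.134 (SD, n = 3).

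*Stat5a* (chr11:100859351-100885169) and *Stat5b* (chr11:100780731-100850724) lie side by side with *Stat3* and encode near-identical factors of the IL-2, GM-CSF and growth hormone receptors. *Stat5a* lay between 13.1 and 21.9 CPM and *Stat5b* between 26.1 and 45.7 CPM, and neither was called in any comparison. *Stat5b* was at 37.1, 45.7 and 44.7 CPM in WT-Sham and at 29.4, 27.6 and 38.3 CPM in WT-tFCI, which overlap. Its log2 difference between them was -0.42 (SE 0.16, adjusted p = 0.0453), under the fold threshold, and it was called without WT-tFCI replicate 3 (log2 -0.63, adjusted p = 0.0135). *Stat5a* was at 20.9, 20.1 and 21.9 CPM in WT-tFCI, against 15.6, 18.2 and 13.1 CPM in miKO-tFCI. These groups did not overlap, but the log2 difference of -0.43 (SE 0.17) had an adjusted p of 0.131. Per kb, *Stat5b* exceeded *Stat5a* in every library, by 1.77 to 3.62 times. *Stat3* and *Stat5a* share 72 exon bases on opposite strands, and the library kit keeps no strand information, so reads from these bases cannot be told apart.

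*Socs3*, at chr11:117966079-117970047 on the minus strand, is the feedback inhibitor of the IL-6 family and is induced by STAT3. Its level was 559, 714 and 730 CPM in WT-Sham, 572, 570 and 722 CPM in miKO-Sham and 626, 628 and 734 CPM in WT-tFCI. In miKO-tFCI it was 313, 493 and 515 CPM, below every other library, while the other 3 groups overlapped. The difference between WT-tFCI and WT-Sham was 0.00 on the log2 scale, with a 95% interval of -0.32 to 0.32. *Socs3* was 1.53-fold lower in miKO-tFCI than in WT-tFCI (log2 -0.62, SE 0.15, adjusted p = 0.0195). Within batch 1 the log2 difference was -1.0 and within batch 2 it was -0.43. The call was lost with no batch term (adjusted p = 0.119), without WT-tFCI replicate 1 (0.0663) or 3 (0.0883), without miKO-tFCI replicate 1 (0.0522) and with batch 2 libraries only (0.0646), and the value stayed between -0.71 and -0.48 on the log2 scale. miKO-tFCI replicate 1, the lowest library, is also the one with the lowest sum of microglial markers, whose part in the result was not tested. Without it the log2 difference was -0.49. Between miKO-tFCI and miKO-Sham the log2 difference was -0.52 (SE 0.15, adjusted p = 0.0128), under the fold threshold. It was called without miKO-Sham replicate 2 (log2 -0.64, adjusted p = 0.00523) and without miKO-tFCI replicate 3 (log2 -0.63, adjusted p = 0.00927). The interaction was -0.52 with a 95% interval of -0.98 to -0.06 and an adjusted p of 0.215. The ratio of *Socs3* to *Stat3* per kb ran from 14.9 ± 2.76 in miKO-Sham to 7.54 ± 1.79 in miKO-tFCI, with 11.1 ± 1.34 in WT-Sham and 8.35 ± 0.477 in WT-tFCI (SD, n = 3). The gene holds the STAT palindrome shown above, as do 7.83% of all windows.

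*Socs2*, at chr10:95385362-95417180 on the minus strand, restrains growth hormone signalling and is a target of STAT5. It had the largest fold changes of the set, from low counts. The Sham libraries held 18, 11 and 16 counts in WT and 4, 8 and 10 in miKO, which is 0.555 to 2.16 CPM. After tFCI it was at 10.2, 6.12 and 8.28 CPM in WT and at 25.6, 8.55 and 7.91 CPM in miKO. Every tFCI library was above every Sham library. *Socs2* rose 4.87-fold in WT (log2 2.29, SE 0.41, adjusted p = 0.000565) and 12.4-fold in miKO (log2 3.63, SE 0.45, adjusted p = 2.44e-05). In batch 2 libraries only, the rise in miKO was 2.74 on the log2 scale, and without miKO-Sham replicate 1 it was 3.03, both still called. The genotypes overlapped after tFCI, where the log2 difference was 0.65 with a 95% interval of -0.12 to 1.43. The interaction was 1.35 on the log2 scale (adjusted p = 0.272), and 0.42 in batch 2 libraries only. The high value of miKO-tFCI replicate 1 came with the highest astrocyte and endothelial marker sums of all libraries. The sums of astrocyte, endothelial and monocyte markers were also higher in every tFCI library than in every Sham library. Their part in the level of *Socs2* was not tested.

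*Socs1*, at chr16:10782240-10785536 on the minus strand, inhibits interferon and common gamma chain signalling by blocking the kinase. It was at 12.9, 11.8 and 10.1 CPM in WT-Sham, above all libraries of the other 3 groups. Those lay between 3.14 and 8.57 CPM and overlapped with one another. *Socs1* fell by 0.99 on the log2 scale in WT-tFCI vs. WT-Sham ( SE 0.33, adjusted p = 0.0296). With 41 to 107 counts per library behind it, this call was lost without WT-Sham replicate 1 (adjusted p = 0.0700) or 2 (0.0708), without WT-tFCI replicate 1 (0.138) or 3 (0.0849) and with batch 2 libraries only (0.0748). WT-Sham replicate 1 is also the library with the high neutrophil marker sum. Between miKO-Sham and WT-Sham the log2 difference was -0.84 (SE 0.33, adjusted p = 0.100), which passed with only these groups in the fit (adjusted p = 0.0386) and without miKO-tFCI replicate 1 (adjusted p = 0.0431).

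*Cish*, at chr9:107296026-107302784 on the plus strand, is induced by STAT5. Its level was 3.13, 3.03 and 2.56 CPM in WT-Sham and 5.14, 9.16 and 4.10 CPM in miKO-Sham. After tFCI it was 13.2, 6.0 and 5.36 CPM in WT and 9.5, 3.14 and 4.94 CPM in miKO. The WT-Sham libraries were the lowest of all, and the other groups overlapped. *Cish* rose 2.64-fold in WT-tFCI vs. WT-Sham (log2 1.40, SE 0.42, adjusted p = 0.0155). The call was lost without WT-Sham replicate 1 (adjusted p = 0.0782), without WT-tFCI replicate 1 (0.0931) and with batch 2 libraries only (0.0907). miKO-Sham and WT-Sham did not overlap, at a log2 difference of 1.11 (SE 0.42, adjusted p = 0.0825). That difference passed with no filter on low counts (adjusted p = 0.0384), without miKO-Sham replicate 1 (0.0283) and with miKO-Sham replicates 1 and 2 summed (0.0364), and without miKO-Sham replicate 2 it was 0.52 (adjusted p = 0.440). *Gm17041*, an antisense gene, shares 479 exon bases with *Cish* and had 228 counts in all libraries together against 576 of *Cish*, so a part of either count could belong to the other.

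The genes most like 3 of the inhibitors were sought among all genes tested, by Pearson correlation of batch-adjusted log2 CPM over the 12 libraries. For *Socs2* they were *Plscr1* (0.99), *Tpm1* (0.99) and *Sept11* (0.98). The mean level of *Plscr1* was 2.07 CPM in WT-Sham, 0.804 in miKO-Sham, 10.5 in WT-tFCI and 20.2 in miKO-tFCI. For *Socs3* they were *Itgb5* (0.99), *Gm38317* (0.97) and *Efhd2* (0.97), and *Itgb5*, an integrin subunit, was at 1919 CPM in WT-Sham and 1055 in miKO-tFCI. For *Cish* the nearest were *Noa1* (0.91), *Entpd4b* (0.90) and *Cox6b2* (0.89). These are the highest of all correlations and are given as a description.

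The other parts of the pathway were taken from lists by role. Of 25 cytokine ligands, 13 were tested. In WT-tFCI vs. WT-Sham 8 were higher and 4 lower. Genes that are high in tFCI libraries only, such as *Il11* and *Lif*, could pass the filter on low counts through those libraries, so the share of tested ligands is not set against that of all genes. *Osm*, a ligand of the IL-6 family made by myeloid cells, was at 102, 104 and 95.3 CPM in WT-Sham and rose to 244, 358 and 360 CPM in WT-tFCI (log2 1.67, SE 0.16, adjusted p = 1.66e-06). In miKO it was already at 206, 190 and 167 CPM after Sham surgery, higher than in WT-Sham by 0.91 on the log2 scale, and at 154, 183 and 194 CPM after tFCI, lower than in WT-tFCI by 0.85. *Clcf1*, another ligand of that family, fell from 59.7 ± 2.45 to 26.6 ± 1.70 CPM in WT and from 37.2 ± 7.32 to 11.3 ± 2.78 CPM in miKO (SD, n = 3). It was lower in miKO after tFCI (log2 -1.23) and after Sham surgery (log2 -0.68), the latter a call lost in 4 of 21 alternatives (highest adjusted p = 0.0841, in batch 2 libraries only). *Il15*, a common gamma chain ligand, fell from 28.8 ± 4.13 to 11.2 ± 1.16 CPM in WT and from 30.2 ± 0.922 to 16.9 ± 3.78 CPM in miKO. The higher value in miKO-tFCI than in WT-tFCI (log2 0.58, adjusted p = 0.0357) lost its call in 13 of 21 alternatives (highest adjusted p = 0.143, without WT-tFCI replicate 2). *Il11* had 0 counts in all 6 Sham libraries, and was at 14.7, 2.08 and 2.44 CPM in WT-tFCI. In miKO-tFCI it was at 37.0, 9.68 and 11 CPM. *Lif* was at most 0.224 CPM in Sham libraries and at 13.9, 2.76 and 3.34 CPM in miKO-tFCI. For both, miKO-tFCI replicate 1 was the highest library.

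Of 36 receptor genes 31 were tested. In WT-tFCI vs. WT-Sham 10 were higher and 7 lower, and in miKO-tFCI vs. miKO-Sham 10 were higher and 9 lower. The medians of the 31 were 0.32 and 0.00 on the log2 scale. *Osmr*, called higher in both comparisons, averaged at most 0.185 CPM after Sham surgery of either genotype. Such a gene could pass the filter on low counts through its tFCI libraries. The receptor counts and medians are therefore not set against those of all genes. *Csf2ra*, the GM-CSF receptor alpha chain, was at 93.5, 110 and 104 CPM in WT-Sham and rose to 199, 236 and 263 CPM in WT-tFCI (log2 1.18, adjusted p = 1.21e-05). In miKO it was at 131, 136 and 147 CPM after Sham surgery and at 122, 170 and 123 CPM after tFCI, where it was lower than in WT-tFCI by 0.75 on the log2 scale (adjusted p = 0.00318). *Csf2rb2*, a beta chain of the IL-3 receptor that is a close copy of *Csf2rb*, was at 33.6 ± 3.64 CPM in WT-Sham and 11.2 ± 1.16 CPM in miKO-Sham (log2 -1.59, adjusted p = 1.35e-05). It rose to 44.0 ± 8.51 CPM in miKO-tFCI. Reads can be shared between these copies, so their split is uncertain.

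*Il4ra*, the receptor chain that recruits STAT6, was at 143, 182 and 198 CPM in WT-Sham and 446, 418 and 406 CPM in miKO-Sham, higher by 1.32 on the log2 scale (SE 0.20, adjusted p = 0.000268). After tFCI it was at 218, 363 and 361 CPM in WT and 302, 661 and 666 CPM in miKO. The difference of 0.77 between these overlapping groups (adjusted p = 0.0232) lost its call in 6 of 21 alternatives, each WT-tFCI library left out among them (highest adjusted p = 0.136, with no batch term). *Ifngr1* and *Il10ra*, chains of the interferon gamma and IL-10 receptors, fell after tFCI in both genotypes. *Ifngr1* went from 805 ± 105 to 359 ± 19.9 CPM in WT and from 797 ± 102 to 378 ± 122 CPM in miKO, and *Il10ra* from 873 ± 83.0 to 504 ± 59.5 CPM and from 954 ± 19.2 to 401 ± 116 CPM. *Ifnar2* (log2 0.97) was higher in miKO-Sham than in WT-Sham and *Il15ra* was lower (log2 -1.57). *Il6ra*, the IL-6 receptor, was lower in miKO-tFCI than in WT-tFCI at 92.2 ± 21.9 against 139 ± 3.23 CPM (log2 -0.60, adjusted p = 0.0184), a call lost in 7 of 21 alternatives (highest adjusted p = 0.0710, without WT-tFCI replicate 3).

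**Figure D4:**
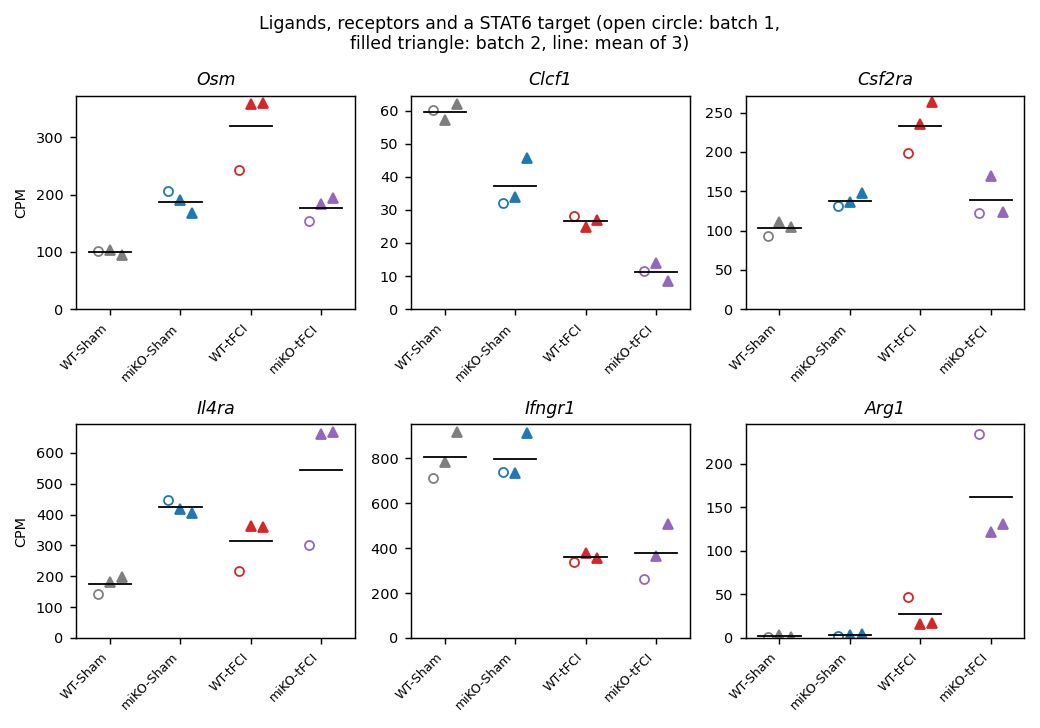
CPM of 2 ligands (*Osm*, *Clcf1*), 3 receptor chains (*Csf2ra*, *Il4ra*, *Ifngr1*) and the STAT6 target *Arg1* in all 12 libraries, on linear axes that start at 0. Open circles are batch 1, filled triangles are batch 2 and lines are means of 3. *Osm* and *Csf2ra* are highest in WT-tFCI, *Il4ra* is higher in miKO-Sham than in WT-Sham, and *Arg1* is highest in miKO-tFCI.

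Among 17 further JAK, STAT, SOCS, phosphatase and PIAS genes, all tested, 4 were higher and 2 lower in WT-tFCI vs. WT-Sham, 35.3% of the list, which is near the 32.6% of all genes. *Ptpn6*, which encodes the inhibitory phosphatase SHP-1, was at 393, 582 and 582 CPM in WT-Sham and 855, 817 and 1135 CPM in miKO-Sham (log2 0.87, adjusted p = 0.000864). It fell to 391, 551 and 565 CPM in miKO-tFCI, next to 428, 528 and 465 CPM in WT-tFCI. *Ptpn11*, encoding SHP-2, rose in both genotypes, from 27.7 ± 3.01 to 42.8 ± 3.89 CPM in WT and from 28.2 ± 2.79 to 45.5 ± 6.19 CPM in miKO. The call in WT was lost on the fold threshold without replicate 2 of either WT group (lowest log2 0.52). *Pias1*, a SUMO ligase that restrains STAT activity, fell from 121 ± 29.4 to 67.4 ± 7.50 CPM in WT (log2 -0.83, adjusted p = 0.000570). *Socs6* was higher in miKO-Sham (67.5 ± 6.94 CPM) than in WT-Sham (38.3 ± 6.27 CPM), a call lost in 2 of 21 alternatives, without miKO-Sham replicate 1 (adjusted p = 0.0693) and with miKO-Sham replicates 1 and 2 summed as 1 library. *Stat2* was at 26.1 ± 6.06 CPM in WT-Sham and 45.2 ± 11.6 CPM in WT-tFCI (log2 0.78, adjusted p = 0.00251).

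All 25 textbook targets of STAT3 and STAT5 entered the fit. In WT-tFCI vs. WT-Sham 13 were higher and 3 lower, 64.0% of the list beside 32.6% of all genes, and in miKO-tFCI vs. miKO-Sham 11 were higher and 3 lower, beside 35.8% of all genes. In miKO-tFCI vs. WT-tFCI 4 were higher and 4 lower, 32.0% of the list beside 8.79% of all genes, with a list median of -0.11 on the log2 scale beside 0.04 for all genes. The list was chosen with earlier results of these data known. Its shares are therefore a description and no test of STAT3 or STAT5 targets as a set. *Icam1*, an adhesion molecule, was at 355, 448 and 494 CPM in WT-tFCI and lower in miKO-tFCI, at 181, 217 and 246 CPM (log2 -1.01, adjusted p = 0.000262). *Bcl2l1*, a survival gene, was higher in miKO-tFCI (169 ± 36.5 CPM) than in WT-tFCI (106 ± 5.96 CPM), a call lost without WT-tFCI replicate 3 (adjusted p = 0.0528) and, on the fold threshold, without miKO-tFCI replicate 3 (log2 0.57). *Hif1a* rose after tFCI in both genotypes, from 70.2 ± 6.93 to 140 ± 8.05 CPM in WT and from 59.8 ± 4.95 to 138 ± 26.8 CPM in miKO. The immediate early genes *Fos* and *Junb* fell after tFCI in both genotypes, *Fos* by 1.44 in WT and 1.38 in miKO on the log2 scale, and *Junb* by 0.98 and 1.31. *Osm* and *Il4ra* above belong to this list as well.

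Of 14 STAT6 targets, the filter left 10. Between miKO-tFCI and WT-tFCI, 4 were higher and 1 lower, where 8.79% of all genes were called. The list was chosen with earlier results of these data known, so this count is not read as a result about STAT6. *Arg1*, arginase 1, was at 1.32, 3.14 and 1.64 CPM in WT-Sham and 1.80, 3.47 and 4.87 CPM in miKO-Sham. It rose to 47.5, 16 and 17.7 CPM in WT-tFCI. In miKO-tFCI it rose to 234, 121 and 131 CPM, higher than WT-tFCI by 2.63 on the log2 scale (SE 0.33, adjusted p = 0.000206). *Chil3*, a chitinase-like protein that is also on the list of monocyte markers, was at 117, 48.5 and 44.5 CPM in WT-tFCI and higher in miKO-tFCI, at 304, 239 and 311 CPM (log2 2.23, adjusted p = 0.0184). This call was lost in 5 of 21 alternatives, each WT-tFCI library left out among them (highest adjusted p = 0.145, with no batch term). Monocyte markers, with *Chil3* itself among the 7, summed to 408 to 661 CPM in WT-tFCI against 587 to 955 CPM in miKO-tFCI. *Chil3* alone went from a mean of 70.0 to 285 CPM, so the sum is not independent of it. In miKO-tFCI 3 of the 7 were called higher, *Chil3* being 1 of them, beside 8.79% of all genes. The part of the other monocyte markers in these differences was not tested. *Ccl24* was higher in miKO-Sham than in WT-Sham, at 29.9 ± 4.71 against 9.5 ± 0.469 CPM, and fell after tFCI in both genotypes. *Irf4* was lower in miKO-Sham, at 0.680 ± 0.507 against 5.14 ± 1.06 CPM, and *Klf4* fell after tFCI in both genotypes, by 1.15 in WT and 1.41 in miKO on the log2 scale. *Egr2* had a log2 difference of -0.77 between miKO-tFCI and WT-tFCI, a call lost in 4 of 21 alternatives (highest adjusted p = 0.0763, in batch 2 libraries only).

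**Figure D5:**
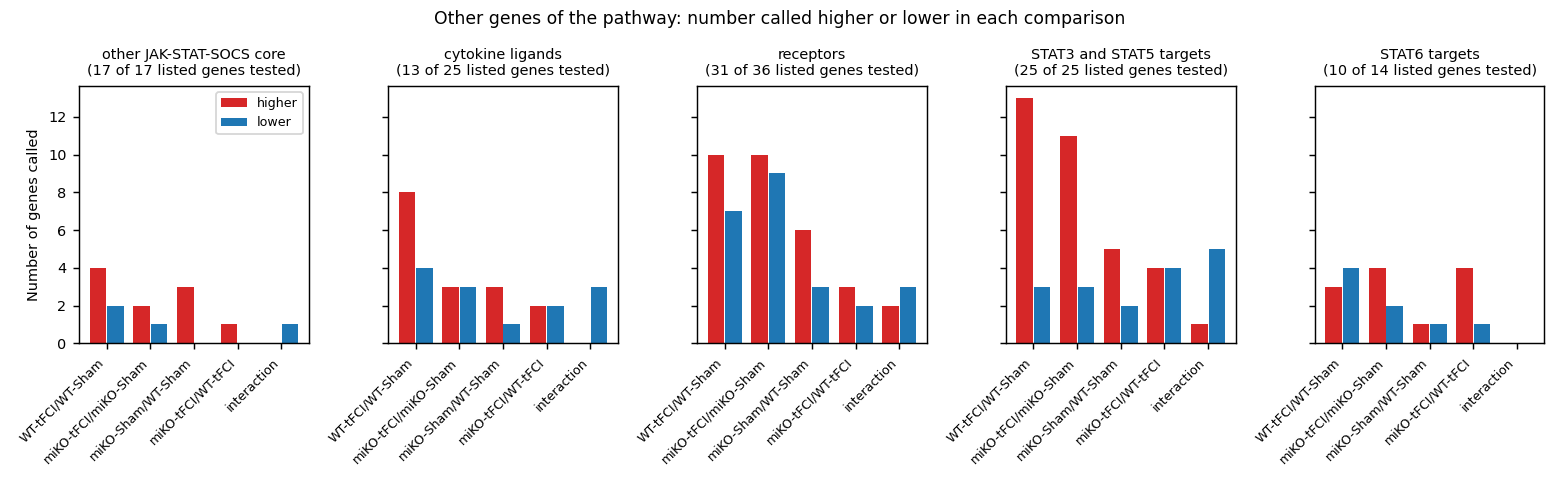
Number of genes of 5 lists that were called higher (red) or lower (blue) in each comparison, with the number tested of the number listed above each panel. Among STAT6 targets 4 are higher and 1 is lower in miKO-tFCI vs. WT-tFCI, and among ligands 8 are higher and 4 lower in WT-tFCI vs. WT-Sham. The lists were chosen with earlier results of these data known, so the counts are a description.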

How the data were processed

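Paired-end RNA-seq reads of sorted microglia were processed by the authors. Per the labels, FastQC 0.11.9, Trim Galore, HISAT2 2.2.1, SAMtools and HTSeq 1.99.2 were used with builds mm10 and GRCm38.p6. The authors deposited raw counts per gene for each library. Between 30.7% and 38.5% of reads lay on genes, and reads on no gene (45.3% to 52.5%) were left out. GENCODE M21 matched 54349 of 55401 identifiers with their version.

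The counts entered edgeR 4.0.16 under R 4.3.3 (filterByExpr, TMM, quasi-likelihood fit of group and batch over all 12 libraries, Benjamini-Hochberg adjustment), after a check on simulated counts. Groups and batches came from the labels. CPM used TMM library sizes, and log2 CPM a prior count of 2. Deviations of same-numbered libraries from their group means correlated at 0.67, 0.33 and 0.32 between WT-tFCI and miKO-tFCI, and from -0.06 to 0.28 between other groups. Between WT-tFCI and miKO-tFCI, the different-numbered pairs of replicates 2 and 3 correlated at 0.33 and 0.39. Within batch 2 of these groups the numbers were thus not set apart. A fit with the replicate number as a block was an alternative. DESeq2 1.42.0, other normalizations, filters, models and each library left out were tried as alternatives. The members and gene lists were chosen with earlier results of these data known. From each list, the 2 most abundant genes called in each direction of a comparison could be named. Pooled hemispheres limit what replicate spread covers, and counting error is large below about 10 counts. The labels name a CytoFLEX SRT sorter and the study's methods a Cytek Aurora.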

Additional observations from a re-analysis of the deposited data

Results flagged for a closer look

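Of 93 different genes of the lists that were tested, 14 passed edgeR's test of the interaction and its fold threshold, where 3.82% of all genes did. That is, their difference between miKO and WT was not the same after tFCI as after Sham surgery. The lists were chosen with earlier results of these data known. Some genes, such as *Il12b*, could pass the filter on low counts through the groups where they are high. The 2 shares are therefore not comparable, and no excess is read from them. The 9 that the rule for named genes takes follow, and the others were *Batf*, *Bcl3*, *Il23a*, *Il2rg* and *Myc*. Values are differences of log2 fold changes, with mean CPM listed for the Sham groups first (WT, then miKO) and for the tFCI groups after them (WT, then miKO). *Osm* had -1.76 (100, 188, 321 and 177 CPM) and *Csf2ra* had -1.18 (103, 138, 233 and 138 CPM), both called in all 20 alternatives. *Csf2rb2* had 1.33 (33.6, 11.2, 52.5 and 44.0 CPM) and *Il7r*, the IL-7 receptor, had 4.59 (27.8, 1.36, 11.5 and 15.3 CPM), also called in every alternative that could be run. For *Il7r* the value was 5.82 without miKO-Sham replicate 3, 3.94 without miKO-Sham replicate 1 and 3.78 in batch 2 libraries only. *Il12b* had -4.42 (0.217, 2.90, 7.7 and 4.37 CPM), with -5.25 without WT-Sham replicate 3 and -3.84 without WT-Sham replicate 2. *Csf3r*, the G-CSF receptor, had -0.87 (565, 764, 352 and 261 CPM), a call lost without WT-Sham replicate 2 and without WT-tFCI replicate 3. *Icam1* had -0.85 (338, 300, 432 and 214 CPM), lost in 6 of 20 alternatives. *Ptpn6* had -0.80 (519, 936, 474 and 502 CPM), lost in 15 of 20, and *Ccnd1* had 1.08 (45.2, 24.8, 43.0 and 50.5 CPM), lost in 13 of 20.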

How the results depend on the processing

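Of 1035 values of the 10 genes under alternatives, 1008 kept their call, 16 lost it, 11 gained it and 0 reversed. Most of the 1008 were called neither in the main fit nor in the alternative. Changes of sign with no call in either fit count as kept, such as 11 of 21 alternatives for *Socs3* in WT-tFCI vs. WT-Sham. In WT-tFCI vs. WT-Sham the losses were *Socs1* (5 of 21 alternatives) and *Cish* (3 of 21). The others were *Socs3* in miKO-tFCI vs. WT-tFCI (5 of 21) and *Stat6* in miKO-tFCI vs. miKO-Sham (3 of 21). The number of the 10 genes called ranged from 2 to 4 in WT-tFCI vs. WT-Sham (2 without WT-Sham replicate 1), from 1 to 2 in miKO-tFCI vs. WT-tFCI (1 without WT-tFCI replicate 1 or 3 or miKO-tFCI replicate 1), from 1 to 2 in miKO-Sham vs. WT-Sham (2 without miKO-Sham replicate 1 or miKO-tFCI replicate 1) and from 2 to 4 in miKO-tFCI vs. miKO-Sham when single libraries were left out, and stayed at 0 for the interaction. In miKO-tFCI vs. WT-tFCI 1 was called with no batch term and 1 in batch 2 libraries only. In miKO-Sham vs. WT-Sham 2 were called with no filter on low counts, 2 with only the groups compared and 2 with miKO-Sham replicates 1 and 2 summed. Over all genes, leaving out single libraries gave 4542 to 5593 calls in WT-tFCI vs. WT-Sham, 616 to 1667 in miKO-tFCI vs. WT-tFCI (616 without WT-tFCI replicate 3, 700 without WT-tFCI replicate 2, 917 without miKO-tFCI replicate 3), 1954 to 2677 in miKO-Sham vs. WT-Sham, 4677 to 6266 in miKO-tFCI vs. miKO-Sham and 281 to 883 for the interaction. For miKO-tFCI vs. WT-tFCI the main count was 1446, with 2193 with no filter, 701 with no batch term and 2535 with only the groups compared. For the interaction it was 629, with 1272 with no filter, 303 with no batch term and 417 with miKO-Sham replicates 1 and 2 summed. miKO-tFCI vs. miKO-Sham had 5887, and 3744 where at least 10 counts were required in every library, which tests fewer genes. For the others the cause was not tested. With only the groups compared, 60.8% of calls in miKO-tFCI vs. WT-tFCI were higher against 46.4% in the main model, and 30.4% with no batch term.

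A replicate block changed no call of the 10 genes, with 4, 2, 1, 3 and 0 called in the 5 comparisons, and gave 1429 calls over all genes in miKO-tFCI vs. WT-tFCI. Over all groups, 8 of 12 libraries were closest to their own number. Since replicates 2 and 3 of the tFCI groups correlated as highly across numbers as within them, this does not establish pairing by number. Among the lists, the block ended the interaction calls of *Ptpn6* and *Ccnd1*. *Socs2* was not tested where at least 10 counts were required in every library. *Socs2*, *Cish* and *Socs1* are limited by depth, with 4 to 248 counts per library.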
